A study of Mus musculus with 9 samples.

Results

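Frat2, its paralog Frat1 and 8 further genes of canonical WNT signalling (Axin2, Lef1, Nkd1, Rnf43, Znrf3, Gsk3b, Ctnnb1 and Dkk3) were followed by RNA-seq in mouse retinal explants with and without an inhibitor of glycolysis. These 10 genes were picked by symbol from a table of 55487 genes, with the difference of Frat2 between the groups already known, so their differences between the groups are given as a description and not as a test. Of the 10, Axin2, Lef1, Nkd1, Rnf43 and Znrf3 are feedback or target genes, Frat1 and Frat2 bind GSK3, Gsk3b and Ctnnb1 are core components, and Dkk3 is a secreted glycoprotein of the Dickkopf family. The comparison asked whether a block of glycolysis changes the RNA of a pathway activator and of the genes that read out the pathway.

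Retinas of wild-type C57BL/6J mice were taken at postnatal day 28 and kept in culture for 48 h in Neurobasal-A medium with glucose at 5 mM; 5 libraries are controls and 4 had 2-deoxy-D-glucose (2-DG) added at 20 mM. The described protocol then holds retinas for 1 h in Krebs' Ringer medium. It adds that those for RNA-seq were processed immediately, so whether they had this hour is not clear. 2-DG is a glucose analog that cells take up but cannot use, and it inhibits glycolysis. The shared treatment text of the labels names 2-DG for every sample, so groups and replicate numbers come from the sample titles and the treatment label. The labels call the libraries biological replicates and give 1 batch for all 9. Nothing says which retinas came from separate animals, so spreads and p-values describe these libraries and may in part be technical.

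Canonical WNT signalling turns on the stability of β-catenin, which a destruction complex of AXIN, APC, CK1 and GSK3 marks for degradation. WNT ligands bound to Frizzled receptors and LRP5 or LRP6 inhibit that complex through Dishevelled, and FRAT proteins bind GSK3 at the site AXIN uses and keep it away from β-catenin. β-Catenin then acts with LEF1 and the TCFs on targets that include inhibitors of the pathway, among them Axin2, Nkd1, Rnf43 and Znrf3. In the retina a specialised branch (Norrin, FZD4, LRP5 and TSPAN12) is known for its part in vessel growth.

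The libraries held 11318087 to 51802230 estimated counts, and a floor of 3 counts stood for 0.0556 to 0.255 CPM (the count scaled to library size), the unit of all levels here unless stated. All 10 genes passed the filter on low counts, with 18 to 122 counts per library for Rnf43, the sparsest. Control 2 stood apart from the other controls in the summed CPM of 12 rod photoreceptor markers (48730 against 5659 to 17731). The sums of 6 marker lists (rods, Müller glia, retinal pigment epithelium, vascular endothelium, microglia and lens) showed no difference between the groups that passed the test (exact two-sided permutation test, adjusted p = 0.754 for each list). Of the 6, the Müller glia sum alone kept its sign when each library was left out, 3747 ± 2083 CPM (SD, n = 5) in control against 2096 ± 1181 CPM (SD, n = 4) in 2-DG libraries, a log2 difference of −0.84 with a range of −1.15 to −0.56, and its part in the genes with a lower mean was not tested. All 12 rod markers, which define the labelled tissue, had counts in all 9 libraries.

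The pair of FRAT genes is shown by the sequence just upstream of each start, because the genes lie side by side and were both lower in the 2-DG libraries. Frat2 (ENSMUSG00000047604) occupies chromosome 19 from 41845972 to 41848132 on the minus strand and Frat1 (ENSMUSG00000067199) chromosome 19 from 41829970 to 41832583 on the plus strand (GRCm38, GENCODE M21), with 13388 bases between them. The 250 bases upstream, from RefSeq on GRCm38.p6, are chr19:41829720-41829969 on the plus strand for Frat1 and chr19:41848133-41848382 on the minus strand for Frat2, read 5′ to 3′ towards the gene. Capitals mark bases that lie in exact runs of at least 12 bases shared by the windows of both genes.
Frat1: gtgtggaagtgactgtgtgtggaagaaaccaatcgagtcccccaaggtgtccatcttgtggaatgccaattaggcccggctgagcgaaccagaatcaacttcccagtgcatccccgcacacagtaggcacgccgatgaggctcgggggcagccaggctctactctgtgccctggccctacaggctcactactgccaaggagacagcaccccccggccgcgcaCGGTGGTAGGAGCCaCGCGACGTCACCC
Frat2: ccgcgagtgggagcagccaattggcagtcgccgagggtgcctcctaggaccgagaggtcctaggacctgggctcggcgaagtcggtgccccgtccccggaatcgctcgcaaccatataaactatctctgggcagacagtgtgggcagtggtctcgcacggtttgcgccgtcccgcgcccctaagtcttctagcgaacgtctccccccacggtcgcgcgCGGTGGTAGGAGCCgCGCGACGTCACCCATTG
The capitals end at the start site, and the last run continues into both genes to a length of at least 63 bases. It reaches the end of the Frat1 window, 50 bases after the start, so its full length was not measured. When the windows from 250 bases before to 50 after each start were aligned at that run without gaps, 78 of the last 80 bases were identical (97.5%) and 67 of the 216 before them. The share of identical bases was thus higher near and after the start sites than further upstream.

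Motifs were searched on both strands of the 250 bases and set beside 32851 windows of all promoters in that table. CGTCA, the core word of the cyclic AMP response element, begins 8 bases upstream of Frat1 and 12 upstream of Frat2, inside the shared run, and occurs in 17.8% of all windows. The full element TGACGTCA (1.55% of windows) is in neither. TATAAA is in the Frat2 window, 136 bases upstream, but not in that of Frat1, and is found in 12.4% of windows. CCAAT occurs 2 times in each, overlapping itself on the opposite strand in Frat2, and in 33.8% of all windows. The TCF/LEF words CTTTGAT (3.21% of windows) and CTTTGTT (5.03%) were in no window of the 8 genes with an entry, which left out Znrf3 and Dkk3. These matches describe letters and not sites.

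Frat2, the gene picked for its difference, had the largest log2 fold change of the 10 in either direction. Its level was 19.2, 12.4, 30.2, 33.3 and 42.5 CPM in control 1 to 5 and 9.68, 8.21, 7.63 and 12.7 CPM in 2-DG 1 to 4. The 2-DG libraries lay close together, and only control 2 fell within their range, just below 2-DG 4. The group means were 27.5 ± 11.8 CPM (SD, n = 5) and 9.56 ± 2.26 CPM (SD, n = 4), a log2 fold change of −1.53 (SE 0.37), or 2.88-fold. Without control 2 the control mean was 31.3 ± 9.58 CPM (SD, n = 4). The log2 fold change stayed between −1.71 and −1.33 when each library was left out in turn. The groups overlapped with TMM scaling, with DESeq2 size factors and in the transcript table, and did not overlap with upper-quartile scaling, with library size alone or in the CPM deposited by the authors. In bulk RNA, fewer cells of a type and less RNA per cell cannot be told apart.

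Frat1, which encodes the other GSK3-binding paralog, differed less but without overlap. Its level was 7.42, 11.3, 10.8, 7.54 and 8.95 CPM in control 1 to 5 and 4.24, 6.04, 6.58 and 7.04 CPM in 2-DG 1 to 4. Every control library lay above every 2-DG library, by a small margin between control 1 and 2-DG 4. The means were 9.21 ± 1.81 CPM (SD, n = 5) and 5.97 ± 1.22 CPM (SD, n = 4), a log2 fold change of −0.62 (SE 0.28) with a leave-one-out range of −0.72 to −0.48. The order of the libraries was not that of Frat2: Frat1 was highest in control 2, the control in which Frat2 was lowest. The groups stayed apart under the 4 scalings tried, but they overlapped in the transcript table. Each gene has 1 annotated transcript there, but the deposited gene values are not the sums of the transcript values (142 and 144 counts for Frat1 in control 3, 396 and 402 for Frat2), and how they relate is not given in the sources used here. The transcripts had log2 fold changes of −0.64 (SE 0.33) for Frat1 and −1.56 (SE 0.41) for Frat2.

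The transcripts of Frat1 and Frat2 share 163 words of 31 bases, 6.31% of those of Frat1 and 7.66% of those of Frat2. Reads within these stretches could have been assigned to either gene, so the levels of both carry that uncertainty. The remaining sequence tells the genes apart.

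Set against Frat1 in the same library, the log2 level of Frat2 exceeded that of Frat1 by 1.36, 0.13, 1.47, 2.13 and 2.24 in control 1 to 5 and by 1.18, 0.44, 0.21 and 0.85 in 2-DG 1 to 4. These log2 ratios overlapped, since control 2 had the smallest of all 9. Their means were 1.47 ± 0.84 (SD, n = 5) and 0.67 ± 0.43 (SD, n = 4), a difference of −0.80 with a leave-one-out range of −1.13 to −0.61. Without control 2 the log2 ratios did not overlap, with 1.36 to 2.24 in control and 0.21 to 1.18 in 2-DG libraries, and the difference was −1.13. Whether the groups overlap in this ratio therefore turns on that library.

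**Figure D1:**
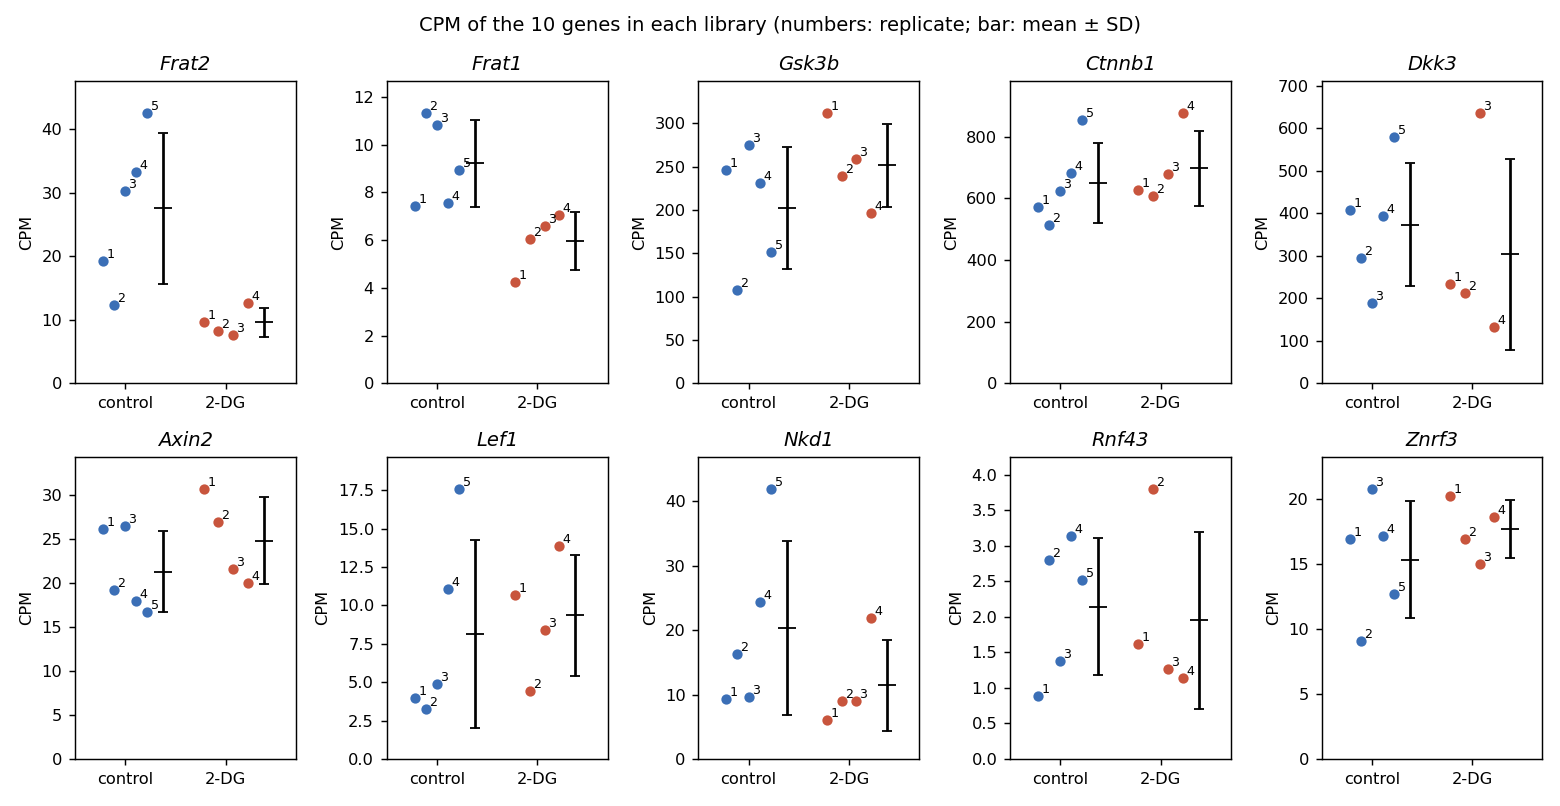
Level of each of the 10 genes (y axis, CPM, from 0) in the control (blue) and 2-DG (red) libraries, with the replicate number beside each point and black bars for the mean ± SD. Frat1 shows no overlap between the groups, Frat2 overlaps only through control 2, and the other 8 genes overlap.

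Frat2 was also set against the 5 feedback and target genes, as a description of the gene picked for its difference. Relative to Axin2, Znrf3 and Lef1 in the same library, Frat2 was lower in all 4 2-DG libraries than in any of the 5 control libraries. How many of all genes give a ratio to Frat2 that separates the groups was not counted. The separation is therefore not read as particular to these genes. The log2 ratio to Znrf3 was 0.18 to 1.73 in control and −1.06 to −0.55 in 2-DG libraries, a difference of means of −1.67. That to Lef1 was 1.27 to 2.61 in control and −0.14 to 0.88 in 2-DG libraries, a difference of −1.81. The gap was narrow for Axin2, where control 2 was at −0.63 and 2-DG 4 at −0.65, with a difference of means of −1.65. Ratios to Nkd1 (difference −0.67) and Rnf43 (difference −1.26) overlapped between the groups.

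**Figure D2:**
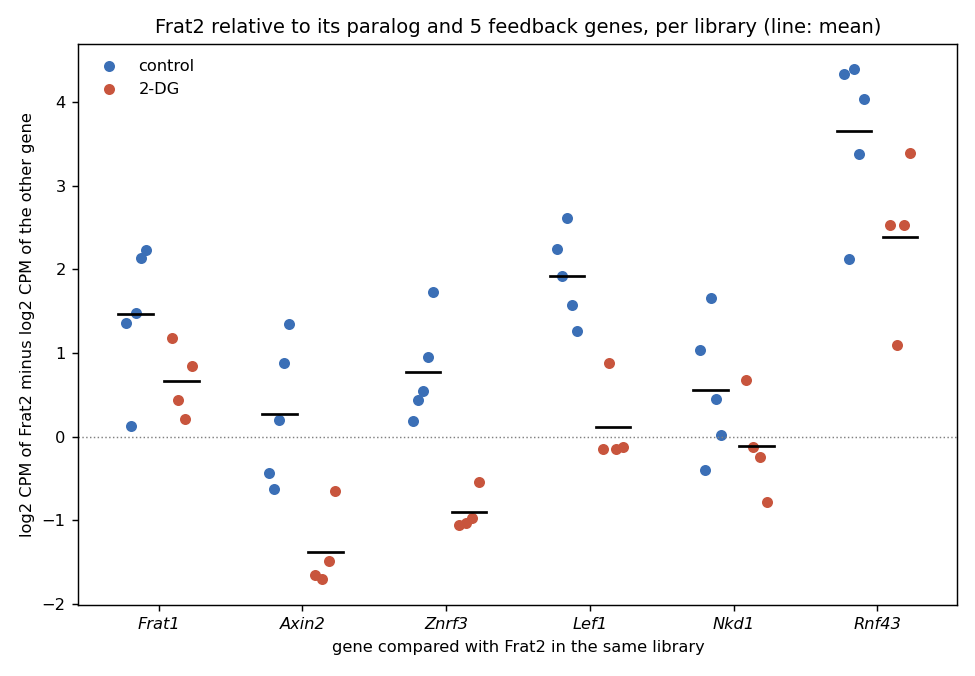
Log2 CPM of Frat2 minus log2 CPM of the gene named on the x axis, in each control (blue) and 2-DG (red) library, with a black line at each group mean and a dotted line at 0. The groups are apart for Znrf3, Lef1 and, by a narrow margin, Axin2, and overlap for Frat1, Nkd1 and Rnf43. The share of all genes with such a gap was not counted.

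The 5 feedback and target genes were divided, with a higher mean in 2-DG libraries for Axin2, Lef1 and Znrf3 and a lower mean for Nkd1 and Rnf43, and the groups overlapped for each. Axin2 encodes a scaffold of the destruction complex and is the most widely used readout of β-catenin activity. Its level was 26.1, 19.2, 26.4, 18.0 and 16.7 CPM in control 1 to 5 and 30.6, 26.9, 21.6 and 20.0 CPM in 2-DG 1 to 4, and the groups overlapped. The means were 21.3 ± 4.63 CPM (SD, n = 5) and 24.8 ± 4.90 CPM (SD, n = 4), a log2 fold change of 0.22 (SE 0.24) that ran from 0.11 (without 2-DG 1) to 0.31 (without 2-DG 4) and was 0.42 with limma-voom.

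Lef1, a DNA-binding partner of β-catenin and itself a target, was at 4.00, 3.22, 4.89, 11.1 and 17.6 CPM in control 1 to 5 and at 10.7, 4.42, 8.43 and 13.8 CPM in 2-DG 1 to 4. Its spread within the control group was wider than the difference of the means, 8.16 ± 6.12 CPM (SD, n = 5) against 9.35 ± 3.97 CPM (SD, n = 4). The log2 fold change was 0.19 (SE 0.54), and it ranged from −0.07 to 0.67 over the leave-one-out fits. Control 5 and 2-DG 4, with the highest Lef1, also had the highest summed CPM of 12 vascular endothelial markers, 2834 and 4080 against 471.3 to 1541 in the other 7 libraries. The part of vessel content in the level of Lef1 was not tested.

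Nkd1, an inhibitor that binds Dishevelled, was the only one of the 5 with a sizeable lower mean. Its level was 9.35, 16.3, 9.54, 24.4 and 41.9 CPM in control 1 to 5 and 6.03, 8.93, 9.04 and 21.8 CPM in 2-DG 1 to 4. The values were high in control 4, control 5 and 2-DG 4, and the groups overlapped. The means were 20.3 ± 13.6 CPM (SD, n = 5) and 11.5 ± 7.06 CPM (SD, n = 4), with a log2 fold change of −0.82 (SE 0.53) that was −0.39 without control 5 and −1.34 without 2-DG 4. Axin2 and Nkd1 ran in opposite order at both ends: 2-DG 1 had the highest Axin2 and the lowest Nkd1, and control 5 the lowest Axin2 and the highest Nkd1.

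Rnf43 and Znrf3 encode related membrane E3 ubiquitin ligases that remove Frizzled receptors from the cell surface. Rnf43 was at 0.885, 2.79, 1.37, 3.14 and 2.52 CPM in control 1 to 5 and at 1.61, 3.80, 1.26 and 1.14 CPM in 2-DG 1 to 4, with means of 2.14 ± 0.965 CPM (SD, n = 5) and 1.95 ± 1.24 CPM (SD, n = 4). Its log2 fold change was −0.13 (SE 0.52), with a leave-one-out range of −0.68 to 0.06, and the groups overlapped. Znrf3 was at 16.9, 9.09, 20.8, 17.1 and 12.7 CPM in control 1 to 5 and at 20.2, 16.9, 15.0 and 18.6 CPM in 2-DG 1 to 4. The means were 15.3 ± 4.50 CPM (SD, n = 5) and 17.7 ± 2.24 CPM (SD, n = 4), the groups overlapped, and the log2 fold change was 0.20 (SE 0.27). Control 2 was the lowest of all 9, and without it the value was 0.06, the low end of a leave-one-out range that reached 0.33 without control 3.

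The core components were more abundant, and their groups overlapped. Gsk3b, the kinase that FRAT proteins bind, was at 246, 107, 275, 231 and 152 CPM in control 1 to 5 and at 311, 239, 259 and 197 CPM in 2-DG 1 to 4. Control 2 was the lowest of all libraries, and the log2 fold change of 0.31 (SE 0.30) became 0.15 without it. The means were 202 ± 70.0 CPM (SD, n = 5) and 251 ± 47.7 CPM (SD, n = 4). Ctnnb1, which encodes β-catenin, was at 570, 515, 625, 681 and 853 CPM in control 1 to 5 and at 628, 609, 678 and 876 CPM in 2-DG 1 to 4. Its means of 649 ± 130 CPM (SD, n = 5) and 697 ± 122 CPM (SD, n = 4) differed by less than the spread within each group, with a log2 fold change of 0.10 (SE 0.24) and a leave-one-out range of −0.02 to 0.21.

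Dkk3 encodes a secreted glycoprotein whose action on WNT signalling depends on context. Its level was 407, 294, 189, 395 and 580 CPM in control 1 to 5 and 234, 212, 635 and 133 CPM in 2-DG 1 to 4. The highest and the lowest library were both 2-DG libraries, so the means of 373 ± 145 CPM (SD, n = 5) and 303 ± 225 CPM (SD, n = 4) lie within the spread of the 2-DG group, and the log2 fold change of −0.30 (SE 0.47) was −0.95 without 2-DG 3, −0.09 without control 5 and −0.05 without 2-DG 4. 2-DG 3, the library with the highest Dkk3, also had a summed level of 159.5 CPM for 10 retinal pigment epithelium markers, against 1.87 to 15.8 CPM in the other 8, and the highest Müller glia sum of the 2-DG group, 3590 CPM. The part of either cell type in Dkk3 was not tested.

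Of the 10 genes, 5 had a higher and 5 a lower mean in 2-DG libraries, where 50.8% of all 21049 genes tested had a lower one, and their median log2 fold change was −0.02 against −0.01 over all genes. None passed an adjusted p of 0.05 in edgeR's quasi-likelihood fit, where the share called over all genes was 0%. At an unadjusted p under 0.05 there was 1 of the 10, Frat2, where the share over all genes was 7.25% (4.83% lower and 2.42% higher in 2-DG). The count was 1 to 3 when each library was left out. It was 3 without 2-DG 4, where Frat1 and Nkd1 joined Frat2 and the share over all genes was 12.9%. DESeq2 (1.35% of all genes called) and limma-voom (5.81%) each called Frat2 alone of the 10 after adjustment. The groups did not overlap for 1 of the 10, Frat1, against 2.93% of all genes (1.41% lower and 1.52% higher in 2-DG). Since Frat2 was picked with this contrast known, nothing is read from these counts.

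Compared per kb of exon, so that genes can be set side by side, the control levels ran from 125 ± 25.0 CPM per kb for Ctnnb1 (SD, n = 5) to 0.327 ± 0.147 for Rnf43. Dkk3 (111 ± 43.2), Gsk3b (20.6 ± 7.12) and Frat2 (12.7 ± 5.48) came next after Ctnnb1, followed by Nkd1 (4.45 ± 2.97), Axin2 (3.86 ± 0.842), Frat1 (3.52 ± 0.694), Znrf3 (1.94 ± 0.570) and Lef1 (0.928 ± 0.696). Of the 9 neighbouring pairs in this order, only Dkk3 with Gsk3b and Frat1 with Znrf3 did not overlap between control libraries. Frat2 was thus the most abundant of the pair of FRAT genes in every control library on this scale. In 2-DG libraries its level per kb, 4.42 ± 1.05 (SD, n = 4), was close to that of Axin2, 4.50 ± 0.891.

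The wider pathway was read from a list of 107 genes sorted by textbook role, of which 93 passed the filter on low counts. In the edgeR fit 50 had a higher and 43 a lower mean with 2-DG, 0 passed an adjusted p of 0.05 (lowest 0.514), and 9 had an unadjusted p under 0.05, 8 of them lower. The median log2 fold change of the list was 0.04. Without the 10 genes above, 8 of 83 (9.64%) had an unadjusted p under 0.05, beside the 7.25% over all genes. Other tools called more of the 93 after adjustment: DESeq2 called 4 (Frat2, Wnt4, Wnt7a and Wnt10b), where it called 1.35% of all genes, and limma-voom with sample weights called 10, where it called 5.81% of all genes. The 10 were those 4 with Wnt7b, Wnt11, Fzd7, Tcf7l2, Dvl3 and Ccnd1.

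WNT ligands, with R-spondins and secretion factors, held 5 of the 9 genes with an unadjusted p under 0.05. Of 17 tested, 11 had a lower mean and 5 had an unadjusted p under 0.05, all 5 lower, beside 4.83% of all genes lower at that p, and the median log2 fold change was −0.39. Without control 4, or without 2-DG 2, 3 of these 5 were still at an unadjusted p under 0.05. Wnt4 was at 5.00, 11.0, 4.50, 10.4 and 12.2 CPM in control 1 to 5 and at 2.80, 3.42, 2.65 and 4.40 CPM in 2-DG 1 to 4, without overlap (as for 1.41% of all genes in this direction), and its log2 fold change was −1.38 (SE 0.40, edgeR adjusted p = 0.524). Wnt7a had 1.42, 0.0716, 3.05, 6.35 and 4.26 CPM in control and 0.339, 0.249, 0.130 and 0.372 CPM in 2-DG libraries, and control 2, with 1 count, lay below all of these. Its log2 fold change was −3.51 (SE 0.94) and that of Wnt10b −2.93 (SE 0.86), and neither passed (edgeR adjusted p = 0.524 and 0.526). Wnt7a was at −3.83 without control 2 (edgeR adjusted p = 0.0620) and at −2.74 with a replicate block (edgeR adjusted p = 0.726), and it did not pass the filter on low counts without control 4 or without control 5. Leaving out 1 library took Wnt10b from −3.55 (without 2-DG 2) to −2.57 (without 2-DG 3), and limma-voom gave −4.15. Wnt7b (−2.79) and Wnt11 (−1.54), the other 2 of the 5, are named after their values were seen.

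Receptors were divided, with 12 of 19 tested higher and 7 lower. The lowest p was that of Fzd7, a Frizzled receptor, at 15.0, 3.01, 19.3, 21.8 and 35.9 CPM in control 1 to 5 and 4.41, 6.50, 6.71 and 7.84 CPM in 2-DG 1 to 4. Control 2 was the lowest of all 9, and the log2 fold change was −1.58 (SE 0.55, edgeR adjusted p = 0.602), −1.85 without control 2 (edgeR adjusted p = 0.0660), −1.22 without control 5 and −0.99 with a replicate block (edgeR adjusted p = 0.864 and 0.837). The Norrin branch differed by less than 2 SE for each gene, with log2 fold changes of −0.06 (SE 0.44) for Ndp, which encodes Norrin, 0.14 (SE 0.30) for Fzd4, 0.63 (SE 0.38) for Lrp5 and 0.58 (SE 0.34) for Tspan12. These values were not stable: over the 16 alternatives Ndp ran from −0.49 to 0.22, Fzd4 from −0.03 to 0.40, Lrp5 from 0.24 to 0.93 and Tspan12 from 0.03 (limma-voom) to 0.78. Lrp5 had an unadjusted p under 0.05 without control 5 and with a replicate block, and Tspan12 without 2-DG 2. Among secreted inhibitors 9 of 11 tested had a lower mean, and none had an unadjusted p under 0.05 in the TMM-scaled edgeR fit of all 9 libraries. The lowest p there belonged to Kremen2 (log2 fold change −0.86, SE 0.44), Dkkl1 (−0.79, SE 0.51) and Sfrp4 (−0.66, SE 0.48), with leave-one-out ranges of −1.20 to −0.69, −1.01 to −0.50 and −0.94 to −0.40. Kremen2 had an unadjusted p under 0.05 without control 1, without 2-DG 4, with library size only, with DESeq2 and with limma-voom. Dkk3 had one without 2-DG 3.

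Frat1 and Frat2 had the lowest log2 fold changes of their own role. Of 18 genes for FRAT, Dishevelled and the destruction complex, 14 had a higher mean with 2-DG and 4 a lower one, and the median log2 fold change was 0.24. Gsk3a, the kinase related to Gsk3b, was at 0.26 (SE 0.20), and Dvl3, a Dishevelled gene, at 0.38 (SE 0.22). Of the 13 nuclear genes 10 had a higher mean, with Tle1, a corepressor, at 0.48 (SE 0.21, edgeR adjusted p = 0.689), Bcl9l, a coactivator, at 0.45 (SE 0.49) and Tcf7l2, a DNA-binding partner of β-catenin, at −0.81 (SE 0.41). Leaving out 1 library moved Bcl9l from 0.22 (without 2-DG 1) to 0.74 (without 2-DG 4) and Tcf7l2 from −0.98 to −0.55, and Bcl9l was 0.18 with a replicate block and 0.80 with limma-voom. Of 15 feedback and target genes 9 had a lower mean. The smallest p was that of Ccnd1, which encodes cyclin D1, at 88.6, 20.1, 78.9, 99.2 and 80.2 CPM in control 1 to 5 and 27.1, 44.6, 22.4 and 22.5 CPM in 2-DG 1 to 4. Control 2 again lay below all 2-DG libraries, and the log2 fold change was −1.33 (SE 0.42, edgeR adjusted p = 0.546), −1.58 without control 2 (edgeR adjusted p = 0.0637), and −1.22 without control 4, and with a replicate block its unadjusted p was not under 0.05. Ccn4, a matricellular target, was at −0.73 (SE 0.43), with a leave-one-out range of −0.96 to −0.47.

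**Figure D3:**
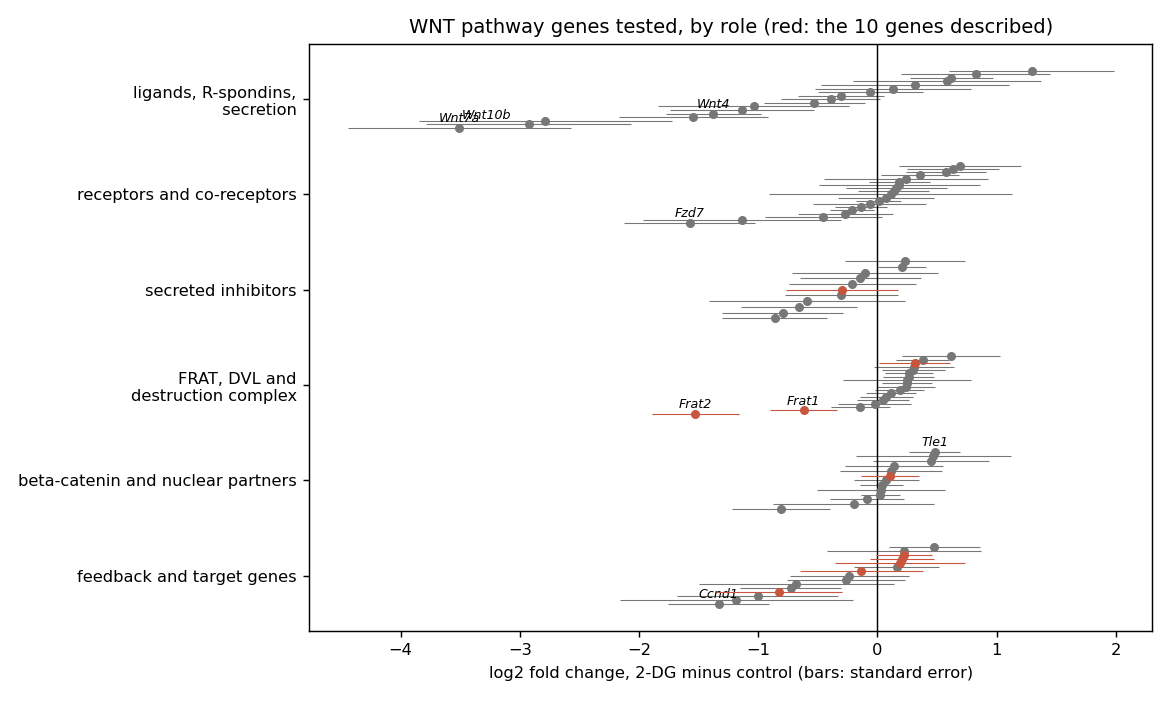
Log2 fold change of 2-DG minus control (x axis) with its standard error for the 93 WNT pathway genes tested, sorted by role on the y axis, with the 10 genes described in red. Frat2 at −1.53 and Frat1 at −0.62 lie left of the other genes of their role, and the ligands Wnt7a, Wnt10b and Wnt4 lie at −3.51, −2.93 and −1.38.

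Values of the genes beside Frat2 on chromosome 19 are given for comparison, with no test of their difference from Frat2. Apart from Frat1, 12 genes start within 200 kb of it, and 9 passed the filter. Their log2 fold changes were −0.07 (Arhgap19), 0.00 (Rrp12 and Pgam1), 0.04 (Exosc1), −0.13 (Zdhhc16), 0.02 (Mms19), −0.26 (Ubtd1), 0.13 (Ankrd2) and −0.45 (Hoga1), with a median of 0.00. None of the 9 had an adjusted or unadjusted edgeR p under 0.05 or groups that did not overlap, beside 7.25% of all genes at that unadjusted p and 2.93% without overlap, so 0 of 9 is near the background. Several values were imprecise, with an SE of 0.98 for Ankrd2, 0.68 for Ubtd1 and 0.48 for Hoga1. Single libraries moved them: without 2-DG 4 the log2 fold change was −1.81 for Ankrd2 and −1.33 for Ubtd1, the latter with an unadjusted edgeR p under 0.05. Control 2 lay apart from the other controls in Rrp12, Pgam1 and Zdhhc16, whose values without it were −0.20, 0.35 and 0.29.

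**Figure D4:**
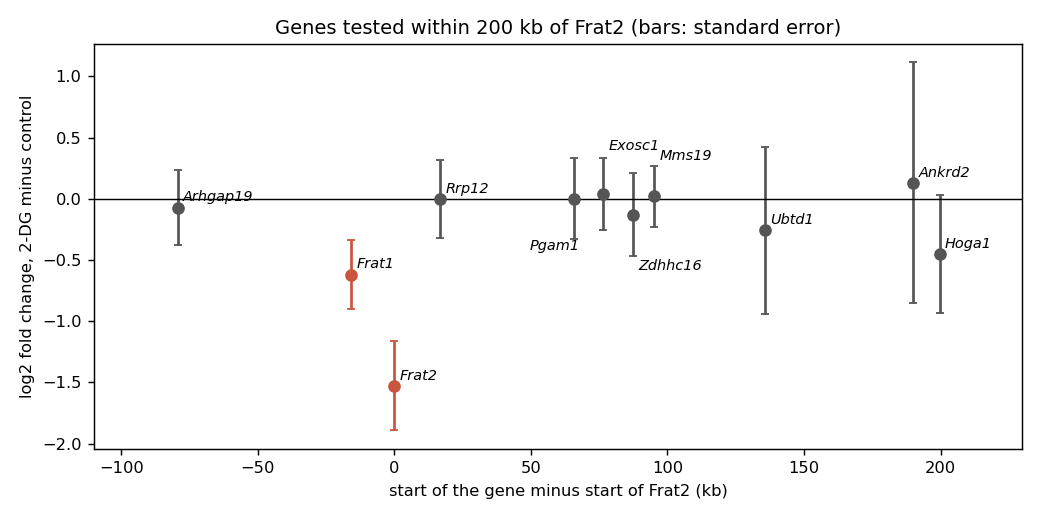
Log2 fold change of 2-DG minus control (y axis) with its standard error for the genes tested within 200 kb of Frat2, by the distance of their start from that of Frat2 (x axis, kb). Frat1 and Frat2 (red) lie at −0.62 and −1.53, and the 9 other genes lie between −0.45 and 0.13.

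Likeness to Frat2 was measured as Pearson's r of log2 CPM over the 9 libraries, among 12272 protein-coding genes, as a description that carries the group difference, the depth and the make-up of each library. The 5 genes most like it were Btg2 (r = 0.983), an antiproliferative factor and immediate early gene, Arc (0.970), an activity-regulated gene of neurons, S1pr2 (0.968), a sphingosine 1-phosphate receptor, Slc5a5 (0.964), an iodide transporter, and Phlda1 (0.957). These genes were picked for likeness over all 9 libraries, so their lower means in 2-DG libraries follow from that choice. The means were 209 ± 48.7 CPM (SD, n = 5) in control against 127 ± 19.4 CPM (SD, n = 4) in 2-DG libraries for Btg2 and 189 ± 104 CPM against 24.9 ± 19.02 CPM for Arc. The groups overlapped for Btg2, Arc, S1pr2 and Phlda1 and not for Slc5a5, beside 1.41% of all genes apart in this direction. None of the 5 passed (edgeR adjusted p from 0.380 to 0.596). Of the 10 genes, Nkd1 came nearest (r = 0.64, rank 688) and Frat1 followed at r = 0.55 (rank 1069).

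After the group means were taken out, a different set led, with Fermt2 (0.983), Skap2 (0.978), Pdcd6ip (0.976), Gla (0.973) and Unc93b1 (0.971). These 5 overlapped between the groups, with log2 fold changes from −0.49 to 0.91. On this measure Ctnnb1 (r = 0.87) and Lef1 (0.84) were the nearest of the 10, whereas Frat1 (−0.19) and Axin2 (−0.27) were not like Frat2. Control 4, control 5 and 2-DG 4 were the highest libraries of their groups for Frat2, Lef1, Nkd1 and Ctnnb1.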

How the data were processed

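RNA of 5 control and 4 2-DG explant libraries was measured from 4 ng of total RNA with a stranded kit, 13 PCR cycles and read pairs of 101 bases. The authors deposited estimated counts per gene (55487) and per transcript (142699), unscaled; the submitters' processing notes name kallisto and GRCm38, with no version. The deposited CPM table, here treated as a signal scaled by the authors, covers 12568 genes and 8 of the 10 described; its values were 0.971 to 1.11 times the CPM used here. It was used only for a check of overlap. A deposited table of the authors' own comparison (fold changes and p-values) was not used.

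Counts were rounded, which changed a total by at most 0.00377%. Genes were filtered with filterByExpr, scaled by TMM and fitted with edgeR 4.0.16 (quasi-likelihood, legacy=TRUE, R 4.3.3) with group alone in the model over all 9 libraries; Benjamini-Hochberg adjustment ran over 21049 genes. For the SE, the log2 fold change (without its sign) was divided by the root of F. CPM use the TMM-scaled library size; ratios and r use log2 CPM with a prior count of 2. Transcripts were fitted likewise (62900 tested). Floors cover counting error only. DESeq2 1.42.0, limma 3.58.1 (voom), other scalings, no filter, a replicate block and leaving out each library were the alternatives. On simulated data for this comparison over 20465 genes, 45% of 200 genes changed 4-fold were recovered, with 3 false calls. How gene values were made from transcript estimates, and whether strand was used, is not given in the sources used here.

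The genes, the lists, the motifs and the rule for names were chosen with earlier results of these data known. The rule named the 10 genes, Gsk3a, Ndp, Fzd4, Lrp5, Tspan12 and Tcf7l2, up to 3 genes of smallest p per role, the 5 genes most like Frat2 by each measure among those with at least 5 CPM, and the genes tested within 200 kb. Symbols matched 99.4% of IDs. Protein sequences were not used here.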

Additional observations from a re-analysis of the deposited data

Results flagged for a closer look

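Of 34 groups of values examined for a sample far from the rest, 2 had one, and chance gives about 1 in 20. The summed CPM of 12 rod photoreceptor markers was 48730 in control 2 and 5659 to 17731 in the other 4 control libraries. Control 2 is also the control with the lowest Frat2, Gsk3b, Ctnnb1, Lef1 and Znrf3 and the highest Frat1. The summed CPM of 10 retinal pigment epithelium markers was 159.5 in 2-DG 3 and 1.87 to 15.8 in the other 3 2-DG libraries. The same library had the highest Dkk3 of all 9.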

How the results depend on the processing

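The log2 fold change kept its sign in each of the 16 alternatives for Frat2 (−1.74 to −1.24), Frat1 (−0.72 to −0.48), Axin2, Nkd1, Znrf3, Gsk3b and Dkk3, and in 14 of 16 for Ctnnb1, 13 for Lef1 and 13 for Rnf43. Counts of calls depended on the tool. DESeq2 called 284 and limma-voom 1222 of all genes after adjustment, against 0 with edgeR, and they called 4 and 10 of the WNT list and 1 each (Frat2) of the 10 genes. Unadjusted calls (p under 0.05) numbered 2642 without the low-count filter and 5474 with limma-voom, against 1526, and 32 of the WNT list with limma-voom, against 9. Leaving out 1 library gave 0 to 16 genes after adjustment (16 without control 2, 2 without 2-DG 4), 921 (without control 4) to 2721 (without 2-DG 4) unadjusted, 7 to 16 of the WNT list unadjusted (14 without control 1, 16 without 2-DG 4), 1 to 3 of the 10 genes unadjusted, and 0 to 1 of the neighbours of Frat2. The causes were not tested, beyond the larger number of genes (37313) that no filter leaves. Of the unadjusted calls 1017 of 1526 were lower in 2-DG, against 1278 of 1599 with upper-quartile scaling and 1376 of 1669 with library size only.

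Same-numbered libraries correlated at 0.45, −0.15, 0.10 and 0.21 in their deviations from the group means, and the numbers share no stated animal or day. A fit with the replicate number as a block called 0 genes after adjustment and 1351 unadjusted, 7 of them on the WNT list, with Frat2 at −1.24. The biological coefficient of variation was 51.5%.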

Other observations

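Among genes with several transcripts, the split of counts between them was given as a share of the gene's transcript counts. The main transcript of Gsk3b (ENSMUST00000023507) took 86.6 ± 2.65% of the control counts (SD, n = 5) and 83.2 ± 2.05% of those with 2-DG (SD, n = 4), and the next (ENSMUST00000114750) 10.4 ± 4.33% and 14.7 ± 1.83%. The groups overlapped for both, and control 2 stood apart with 2.84% for the second, against 10.8 to 13.5% in the other control libraries. For Znrf3, transcript ENSMUST00000109867 took 53.0 ± 5.71% (SD, n = 5) and 46.6 ± 6.82% (SD, n = 4), also with overlap. The groups did not overlap for 1 sparse transcript of Axin2 (ENSMUST00000144511). It took 0.886 to 1.67% of the gene in control and 0 to 0.131% in 2-DG libraries. This transcript is named for that gap, among all transcripts of the 10 genes. Its counts were under the filter on low counts, so it was not tested. How many of all transcripts separate the groups was not counted, so no change in the split of Axin2 is read from it. These spreads leave out the uncertainty of assigning a read to a transcript.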
